A study of Mus musculus with 12 samples.

Results

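Immune checkpoints were followed as 10 genes in the mammary gland: the ligands Cd274, Pdcd1lg2, Cd80, Cd86 and Icosl and the receptors Pdcd1, Ctla4, Icos, Lag3 and Havcr2. A probe set was taken when the platform annotation gave a listed symbol as its only gene, which found all 10 among the 18193 genes of the array, with 17 of 34945 probe sets. Total RNA came from mammary glands of virgin C57BL/6 mice, all of them ovariectomized, and each mouse gave 1 array. The genotypes were Ccnd1+/+ (wildtype) and Ccnd1-/- (knockout), the latter without cyclin D1, which binds the kinases that start the cell cycle. Mice of either genotype were given placebo or pellets releasing estradiol (0.72 mg, made for release over 60 days) for 7 days, which gave 4 groups of 3 separate mice. The labels name the tissue only as mammary gland; the gland's position and the fate of its lymph node are not stated. They tie the knockout to no cell type.

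T cells need a second, co-stimulatory signal beside antigen, and checkpoint receptors set its strength. Cd80 and Cd86 on antigen-presenting cells bind the activating receptor Cd28 and, more tightly, the inhibitory receptor encoded by Ctla4. Cd274 and Pdcd1lg2 encode PD-L1 and PD-L2, the ligands of the inhibitory receptor PD-1, which Pdcd1 encodes. Icosl is the ligand of Icos, a co-stimulatory receptor of activated and follicular helper T cells. Lag3 encodes an inhibitory receptor related to Cd4 that binds MHC class II, and Havcr2 encodes TIM-3, found on exhausted T cells and on myeloid cells. PD-L1 is made by many cells, epithelium, endothelium and macrophages included, and interferon gamma is its best known inducer. The receptors are made mainly by lymphocytes.

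Only Cd274 passed the test in any comparison: it fell with estradiol in wildtype glands. Pdcd1, Ctla4, Icos and Pdcd1lg2 instead read higher on arrays rich in lymphocyte genes, whatever the mouse had received. Those arrays were also higher in 6 of 13 dendritic cell genes, while the other 7 overlapped between rich and poor arrays. Lymphocyte content and the signal of those 6 genes cannot be told apart here, and which cells gave it was not tested. Values are log2 intensities, and differences are tested with limma across all genes with Benjamini-Hochberg adjustment, a gene being called at an adjusted p under 0.05. In the wildtype estradiol comparison 1 of 10 members was called, against 1.88% of all genes. No member was called in the knockout estradiol comparison (0.0989% of all genes by limma), in the genotype comparison under placebo (0%) or under estradiol (1.12%), in the interaction (0.011%), or in the average effect of estradiol (1.58%) or of genotype (0%). At an unadjusted p under 0.05, 1 of 10 members passed in wildtype (13.5% of all genes), 0 in knockout (8.32%), 1 for genotype under placebo (2.03%), 1 for genotype under estradiol (13.5%), 1 for the interaction (6.43%), 1 for the average estradiol effect (16.4%) and 1 for the average genotype effect (10.1%). With 10 members 1 gene makes 10%, so these counts do not set the members as a group apart from the background. The members' median difference was -0.60 with estradiol in wildtype, against 0.01 over all genes, with 7 of 10 below 0. In knockout it was -0.32, against 0.01 over all genes, with 8 of 10 below 0. Several members moved together over the 12 arrays, such as Ctla4 and Icos (Pearson r = 0.979), so they are not independent of each other. These medians and sign counts are a description and carry no test.

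Ccnd1 itself read 8.50 to 9.17 on the wildtype placebo arrays and 9.35 to 10.8 on the wildtype estradiol arrays. On the knockout arrays it read 7.24 to 7.68, below every wildtype array. Arrays differed widely in lymphocyte genes within each group. A lymphocyte score per array, the mean of a T cell score (17 measured genes) and a B cell score (15 measured genes), each gene centred over the 12 arrays, ran from -2.19 to 2.28. It was above 0 on 7 arrays, between 0.31 and 2.28, and below 0 on 5, between -2.19 and -1.88. The 5 are wildtype placebo 3, wildtype estradiol 1 and 3, knockout placebo 2 and knockout estradiol 1. Every group thus held arrays of both kinds, with 1 low array of 3 in each group except wildtype estradiol. The defining T cell gene Cd3d read 7.24 to 9.20 on the high arrays and 3.97 to 4.66 on the low ones, and the B cell gene Ms4a1 read 9.78 to 11.8 and 3.61 to 5.12. In such whole tissue, fewer cells of a type and less RNA per cell cannot be told apart.

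Cd274 is shown with its neighbour Pdcd1lg2, since these adjacent ligand genes bind the same receptor and yet followed different patterns here, and with Ctla4, whose signal followed the lymphocyte genes. RefSeq gives a promoter for 7 of the 10 members (not Cd86, Icos and Lag3). The 250 bases before the start site are, on the plus strand of GRCm38.p6, chr19:29367188-29367437 for Cd274, chr19:29410669-29410918 for Pdcd1lg2 and chr1:60908775-60909024 for Ctla4. They read 5′ to 3′ as follows, with a match to a searched motif in capitals.
Cd274: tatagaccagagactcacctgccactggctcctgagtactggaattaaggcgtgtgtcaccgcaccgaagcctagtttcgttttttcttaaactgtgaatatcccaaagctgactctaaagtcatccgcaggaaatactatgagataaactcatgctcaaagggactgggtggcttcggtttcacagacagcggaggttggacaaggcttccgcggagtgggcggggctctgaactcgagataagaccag
Pdcd1lg2: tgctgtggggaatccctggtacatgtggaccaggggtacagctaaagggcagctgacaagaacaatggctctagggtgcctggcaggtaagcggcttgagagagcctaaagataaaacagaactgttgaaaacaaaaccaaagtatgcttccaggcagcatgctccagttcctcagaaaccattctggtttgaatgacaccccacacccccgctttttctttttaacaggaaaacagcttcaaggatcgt
Ctla4: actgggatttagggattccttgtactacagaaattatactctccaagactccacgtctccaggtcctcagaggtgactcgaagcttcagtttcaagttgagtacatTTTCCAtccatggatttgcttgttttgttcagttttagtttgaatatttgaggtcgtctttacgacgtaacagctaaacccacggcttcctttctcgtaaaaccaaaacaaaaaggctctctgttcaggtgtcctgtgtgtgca
Both strands were searched for the interferon gamma activation site TTCNNNGAA, the interferon response core (GAAA and GAAA parted by any 2 bases), the estrogen response element (GGTCA and TGACC parted by any 3 bases), the AP-1 site TGANTCA and the NFAT core TGGAAA. Matches to different motifs were allowed to overlap. Neither Cd274 nor Pdcd1lg2 held any of the 5 strings in this window. Ctla4 held the NFAT core on the minus strand, read above as TTTCCA, 144 bases before the start. Cd80 and Havcr2 each held the AP-1 string TGATTCA, 42 and 200 bases before the start, and Pdcd1 and Icosl held none of them. Over 32851 RefSeq promoters the 5 strings occurred in 7.02%, 2.98%, 0.0639%, 6.75% and 18.6%, in the order given. Such letters are a description of the window and not evidence of a bound factor.

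Cd274 (probe set 1419714_at) read 8.41, 8.54 and 9.03 on the wildtype placebo arrays and 7.47, 7.66 and 7.74 on the wildtype estradiol arrays. On the knockout arrays it read 8.36, 7.76 and 8.39 with placebo and 8.55, 8.01 and 8.24 with estradiol. All 3 wildtype estradiol arrays lay below all other arrays, and knockout placebo 2, the next lowest, lay just above them. The group means were 8.66 ± 0.33 (SD, n = 3), 7.63 ± 0.14, 8.17 ± 0.35 and 8.27 ± 0.27 in the order of those sentences.

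In wildtype, Cd274 fell by 1.04 on the log2 scale with estradiol (SE 0.22, 95% interval -1.52 to -0.55, limma adjusted p = 0.0452), to 0.488 of the placebo level. It was the 1 member whose wildtype groups did not overlap, a pattern found in 17% of all genes. In knockout the difference was 0.10 (SE 0.22, 95% interval -0.39 to 0.59, limma adjusted p = 0.926), with overlapping groups. No member's knockout groups were separate, against 13.5% of all genes. The test of the difference between both responses, the interaction, gave 1.13 (SE 0.31, 95% interval 0.44 to 1.82, limma adjusted p = 0.411), which did not pass over all genes. Under placebo the knockout arrays lay below the wildtype arrays, by -0.49 (SE 0.22, limma adjusted p = 1), and the groups did not overlap, as for 6.71% of all genes. Under estradiol they lay above the wildtype arrays, by 0.64 (SE 0.22, limma adjusted p = 0.234), again without overlap. These comparisons share their arrays with the estradiol comparisons.

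The wildtype call lay close to the threshold. Its direction held in all 27 alternative fits, but several of them, such as those without a knockout array, leave the difference unchanged by construction. Of the 27, 10 kept the call and 17 did not. A further fit, of each probe set on its own, also lost it (limma adjusted p = 0.055). Leaving out 1 array at a time gave differences from -1.16 to -0.85 and adjusted p from 0.0281 to 0.139 by limma. The call remained only without knockout placebo 2. In these fits only the omission of a wildtype array can change the difference.

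**Figure D1:**
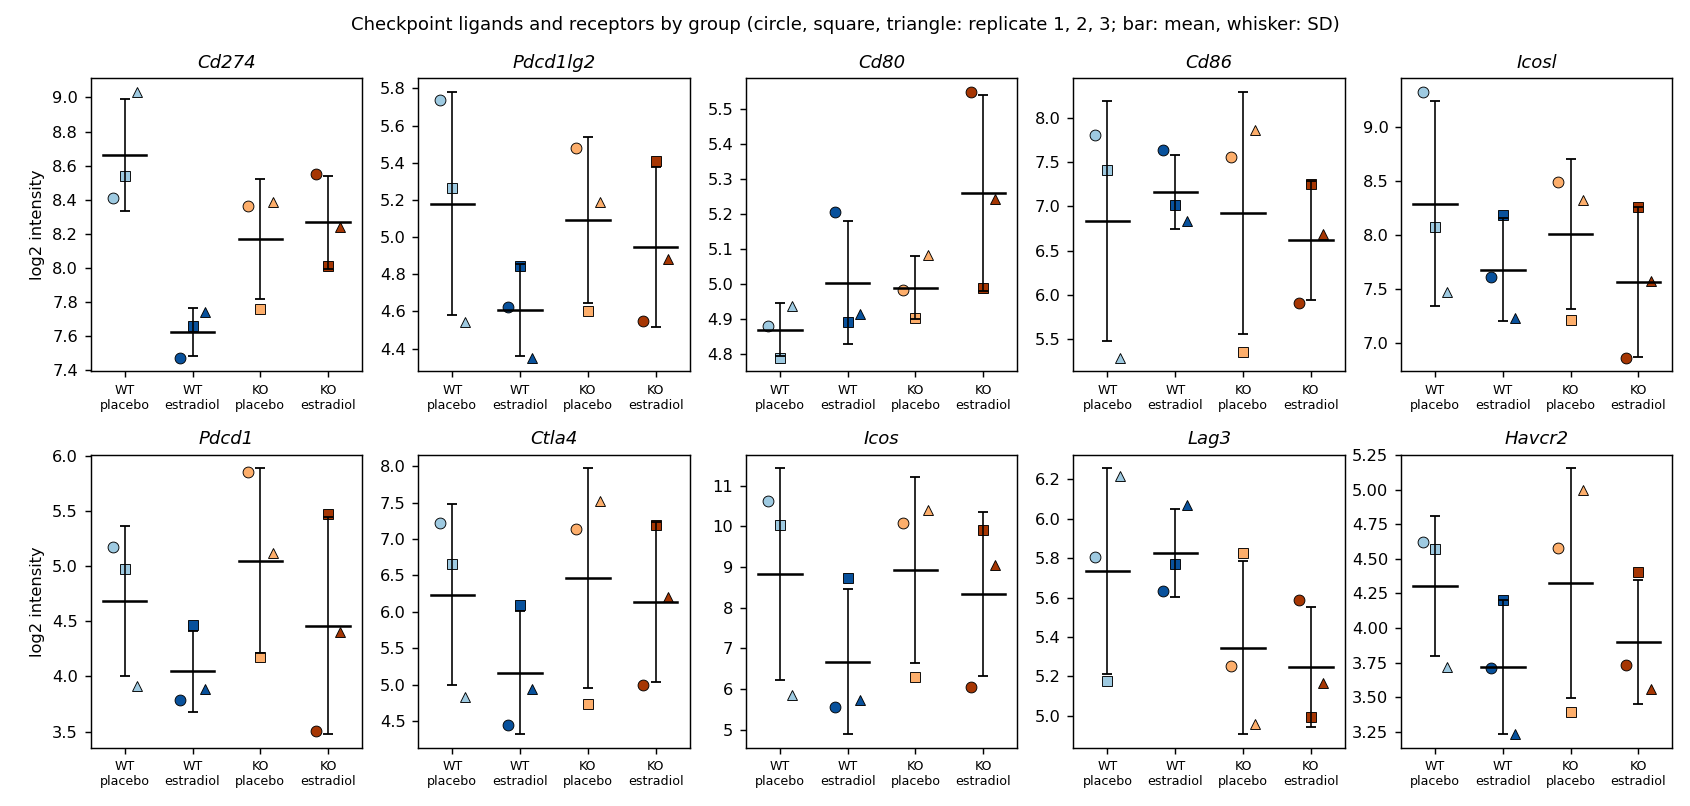
Log2 intensity (y axis) of the 10 members in the 4 groups (x axis), with circles, squares and triangles for replicates 1, 2 and 3, bars for the mean and whiskers for the SD. Cd274 is the 1 member whose wildtype placebo and estradiol arrays are separate, 8.41 to 9.03 against 7.47 to 7.74.

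Cd274 did not separate the lymphocyte-rich from the lymphocyte-poor arrays. It read 7.47 to 9.03 (median 7.76) on the 5 lymphocyte-poor arrays and 7.66 to 8.54 (median 8.36) on the 7 rich ones. Its highest value was on wildtype placebo 3, a poor array. With the lymphocyte score as a covariate the wildtype difference was -1.09 (SE 0.24, limma adjusted p = 0.0347) and the slope was -0.03 per unit of the score. The macrophage score, from 22 genes, did move with the wildtype groups: it was -0.62 to -0.43 on the placebo arrays and 0.29 to 1.65 on the estradiol arrays. With that score as a covariate the Cd274 difference was -0.79 (SE 0.42, limma adjusted p = 0.966). The luminal epithelium score moved the same way, from -0.13 to 0.59 with placebo and from 1.27 to 2.99 with estradiol. With it as a covariate the difference was -1.38 (SE 0.29, limma adjusted p = 0.124). What part these cells have in the Cd274 level was not tested beyond these fits, since each score by itself separates the wildtype groups.

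Cd274 overlaps the coding gene Plgrkt in the RefSeq annotation. Plgrkt read 10.02 to 10.2 on the wildtype placebo arrays and 9.62 to 9.89 on the estradiol arrays, a difference of -0.33 (SE 0.13, limma adjusted p = 0.302). The genes whose profile over the 12 arrays was most like that of Cd274 were Ndrg3 (Pearson r = 0.913), an immunoglobulin kappa variable gene (r = 0.903) and Rbm28 (r = 0.862). These are the highest of all genes on the array and carry no test, here and for the members that follow.

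Pdcd1lg2, the other PD-1 ligand gene, behaved differently (1450290_at). It read 5.74, 5.26 and 4.54 with placebo and 4.63, 4.84 and 4.35 with estradiol in wildtype. In knockout it read 5.48, 4.60 and 5.19 with placebo and 4.55, 5.41 and 4.88 with estradiol. The groups overlapped in both genotypes, and the low array of each placebo group was its lymphocyte-poor array. The wildtype difference was -0.57 (SE 0.33, limma adjusted p = 0.521) and the knockout difference -0.14 (SE 0.33, limma adjusted p = 0.928). All 7 lymphocyte-rich arrays, 4.84 to 5.74, lay above the 5 poor ones, 4.35 to 4.63. Its closest genes by profile were Trat1 (r = 0.982), which encodes an adaptor of the T cell receptor, Afp (r = 0.979) and Ccr9 (r = 0.977).

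The PD-1 gene Pdcd1 (1449835_at) was dim, lying under the lower quartile of its array on 5 of 12 arrays. It read 5.17, 4.98 and 3.91 in wildtype placebo and 3.79, 4.47 and 3.89 in wildtype estradiol. The knockout arrays gave 5.85, 4.18 and 5.12 with placebo and 3.50, 5.48 and 4.40 with estradiol. The groups overlapped in every comparison, with differences of -0.64 (SE 0.55, limma adjusted p = 0.689) in wildtype and -0.59 (SE 0.55, limma adjusted p = 0.817) in knockout. The 7 lymphocyte-rich arrays read 4.40 to 5.85 and the 5 poor arrays 3.50 to 4.18. Its closest profiles were Aebp2 (r = 0.965), Traf5 (r = 0.960) and Zfp458 (r = 0.959).

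Ctla4 (1419334_at), an inhibitory receptor carried by regulatory and activated T cells, showed the same order with a wider range. It read 7.22, 6.65 and 4.84 in wildtype placebo and 4.45, 6.10 and 4.95 in wildtype estradiol. The knockout values were 7.14, 4.74 and 7.52 with placebo and 5.002, 7.19 and 6.199 with estradiol. Each group held high and low arrays, and no comparison separated the groups. The wildtype difference of -1.07 was as large as that of Cd274, but its SE was 0.87 and the limma adjusted p was 0.67. In knockout it was -0.34 (SE 0.87, limma adjusted p = 0.936). The genes nearest in profile were Lta (r = 0.988), Cst7 (r = 0.985) and Ccl22 (r = 0.983).

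Icos moved most among arrays. Its brightest probe set (1436598_at) read 10.6, 10.03 and 5.85 in wildtype placebo and 5.55, 8.72 and 5.73 in wildtype estradiol. On the knockout side the values were 10.1, 6.29 and 10.4 with placebo and 6.05, 9.90 and 9.05 with estradiol. The 7 lymphocyte-rich arrays read 8.72 to 10.6 and the 5 poor ones 5.55 to 6.29. Its SD within groups, 2.19, exceeded that of 99.6% of all genes, whose median SD was 0.22. The wildtype difference of -2.16 (SE 1.59, 95% interval -5.70 to 1.37, limma adjusted p = 0.627) therefore lay inside the spread between mice. The nearest profiles were those of the T cell receptor component Cd3d (r = 0.995), the B cell complement receptor Cr2 (r = 0.994) and the lymphoid transcription factor Ikzf3 (r = 0.994). The other 2 probe sets of Icos ran the same way, from 5.12 to 7.86 and from 4.73 to 7.87, with wildtype differences of -0.77 and -1.23.

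Ctla4 and Icos are neighbouring genes, next to Cd28, which encodes the co-stimulatory receptor for Cd80 and Cd86. Cd28 read 6.34 to 8.69 on the 7 lymphocyte-rich arrays and 4.40 to 5.03 on the poor ones. Over the 12 arrays Ctla4 and Icos correlated at r = 0.979, as a description of arrays that share their lymphocyte content.

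**Figure D2:**
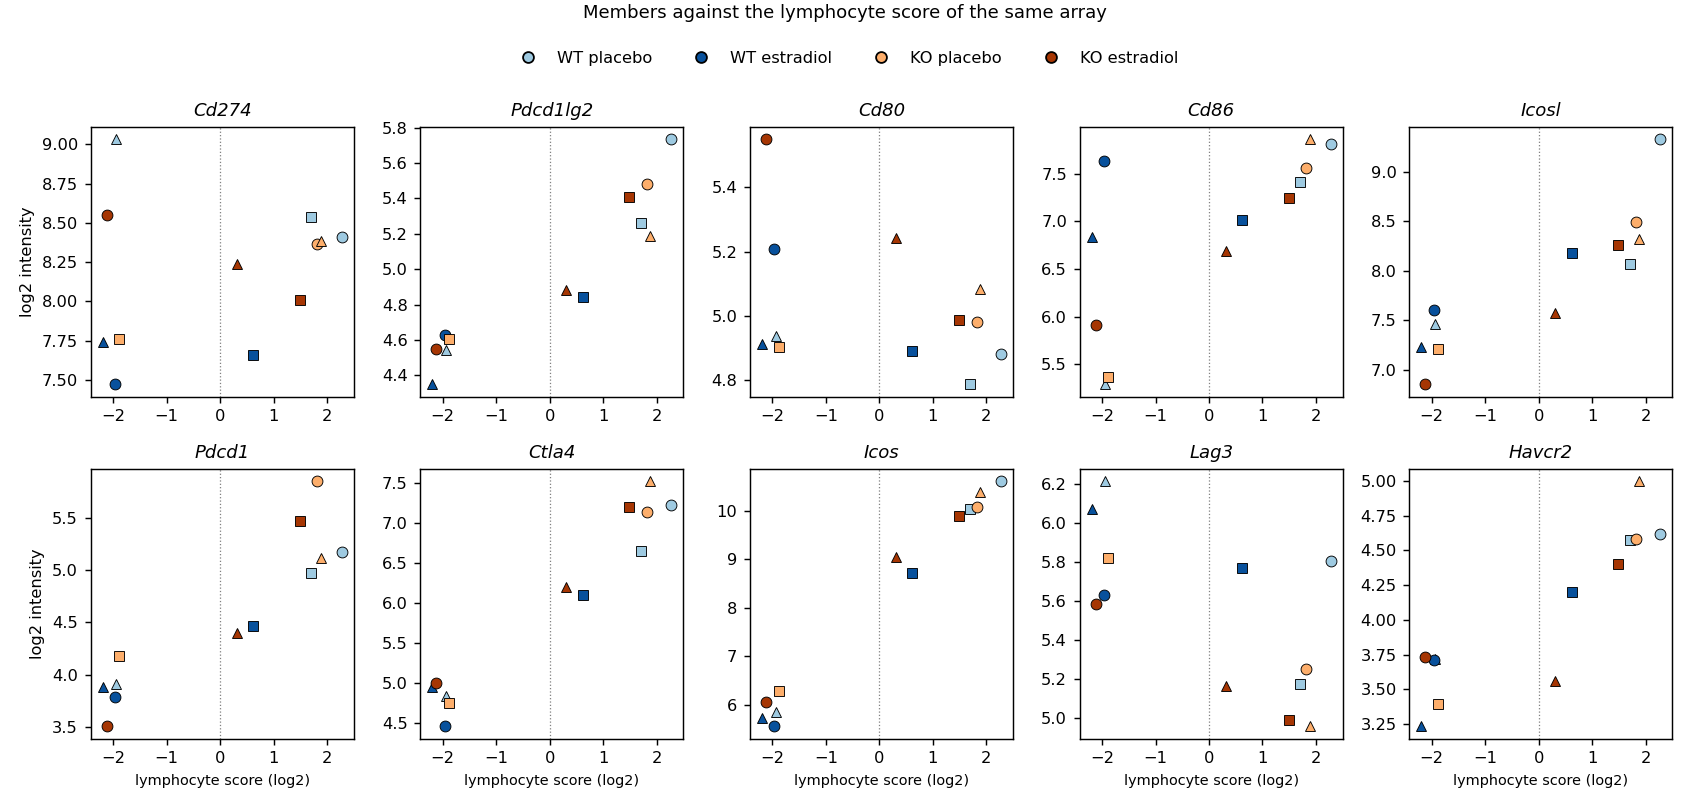
Log2 intensity of each member (y axis) against the lymphocyte score of the same array (x axis, log2), with colours for the groups and circles, squares and triangles for replicates 1, 2 and 3. The dotted line marks a score of 0. Pdcd1lg2, Pdcd1, Ctla4 and Icos are higher on all 7 arrays to its right than on the 5 to its left, while Cd274 spans 7.47 to 9.03 on the left alone.

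Havcr2 and Icosl followed the same arrays with some overlap. Havcr2 (1451584_at) read 4.62, 4.57 and 3.72 in wildtype placebo and 3.71, 4.20 and 3.23 in wildtype estradiol. In knockout it read 4.58, 3.39 and 4.999 with placebo and 3.73, 4.40 and 3.56 with estradiol. It lay under the lower quartile of its array on 6 of 12 arrays, and its differences were -0.59 (SE 0.43, limma adjusted p = 0.627) in wildtype and -0.43 (SE 0.43, limma adjusted p = 0.829) in knockout. Knockout estradiol 3, with a lymphocyte score of 0.31, was the 1 rich array among the poor ones in Havcr2. Its closest profiles were an immunoglobulin kappa variable gene (r = 0.965), Polr2b (r = 0.961) and Nipal3 (r = 0.956).

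Icosl (1419212_at), made by B cells and other antigen-presenting cells, read 9.33, 8.07 and 7.47 in wildtype placebo and 7.61, 8.18 and 7.23 in wildtype estradiol. The knockout arrays gave 8.49, 7.21 and 8.32 with placebo and 6.86, 8.26 and 7.57 with estradiol. The groups overlapped, with differences of -0.61 (SE 0.53, limma adjusted p = 0.689) and -0.44 (SE 0.53, limma adjusted p = 0.861). The second Icosl probe set was dimmer and flat, from 4.13 to 4.57. The poor arrays read 6.86 to 7.61 on the brighter set and the rich arrays 7.57 to 9.33. Its closest profiles were Tm9sf1 (r = 0.978), Slc14a1 (r = 0.963) and Usp42 (r = 0.958).

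The CD28 ligands differed from each other. Cd86 (1420404_at) read 7.81, 7.41 and 5.29 in wildtype placebo and 7.63, 7.01 and 6.84 in wildtype estradiol. The knockout values were 7.55, 5.36 and 7.86 with placebo and 5.91, 7.25 and 6.69 with estradiol. Among the lymphocyte-poor arrays it was lowest on both placebo arrays and highest on wildtype estradiol 1, which had the highest macrophage score of all arrays, 1.65, and a lymphocyte score of -1.96. The wildtype difference was 0.32 (SE 0.76, limma adjusted p = 0.909) and the knockout difference -0.31 (SE 0.76, limma adjusted p = 0.931). With the lymphocyte score as a covariate the wildtype difference was 1.17 (SE 0.42, limma adjusted p = 0.168). The second Cd86 probe set gave a wildtype difference of 0.41. The closest profiles were Eif3f (r = 0.982), Rps18 (r = 0.977) and Slfn2 (r = 0.977).

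Cd80 varied least. Its used probe set (1451950_a_at) read 4.88, 4.79 and 4.94 in wildtype placebo and 5.21, 4.89 and 4.91 in wildtype estradiol. Knockout arrays read 4.98, 4.90 and 5.08 with placebo and 5.55, 4.99 and 5.24 with estradiol. Groups overlapped, and the differences were 0.14 (SE 0.15, limma adjusted p = 0.763) and 0.27 (SE 0.15, limma adjusted p = 0.676). Of its other 3 probe sets, 2 lay under the lower quartile on all 12 arrays and the third on 4, so most Cd80 signal was near the bottom of the scale. Its closest profiles were Slc4a5 (r = 0.930), the interferon-induced Gbp3 (r = 0.927) and Cend1 (r = 0.873).

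Lag3 (1449911_at) ran against the other receptors. It read 5.81, 5.18 and 6.22 in wildtype placebo and 5.63, 5.77 and 6.07 in wildtype estradiol. In knockout it read 5.25, 5.82 and 4.96 with placebo and 5.59, 4.99 and 5.17 with estradiol. The lymphocyte-poor arrays read 5.59 to 6.22 and the rich arrays 4.96 to 5.81, so its higher values fell on poor arrays. The estradiol differences were 0.09 (SE 0.29, limma adjusted p = 0.94) in wildtype and -0.10 (SE 0.29, limma adjusted p = 0.946) in knockout. Under estradiol, knockout lay below wildtype without overlap, by -0.58 (SE 0.29, limma adjusted p = 0.426). With Cd274 that made 2 of 10 members with separate genotypes under estradiol, against 22.3% of all genes. Its average genotype effect was -0.48 (SE 0.21, limma adjusted p = 0.468). The nearest profiles were Dele1 (r = 0.966), Ubl7 (r = 0.947) and Mlh3 (r = 0.947), none of which marks a lymphocyte. Its neighbour Cd4 did follow the lymphocyte genes, at 7.66 to 8.80 on the rich arrays and 6.63 to 7.40 on the poor ones. Ptms, the neighbour of Lag3 on the other side, did not, at 10.02 to 10.81 on the rich arrays and 10.47 to 10.95 on the poor ones.

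In all, 4 of 10 members were higher on every lymphocyte-rich array than on any poor array, against 4.53% of all genes. The same held for 16 of 17 T cell genes and 14 of 15 B cell genes, which make up the score and so separate by its construction. It also held for 6 of 13 dendritic cell, 7 of 15 cytotoxic, NK and T effector and 3 of 7 regulatory T cell genes. The 6 dendritic cell genes were Flt3, Ly75, H2-DMb2, Ccr7, Siglech and Irf8, and the other 7 of that list overlapped. Among genes of signalling below the receptors it held for 6 of 21, and among macrophage genes for 0 of 22. Lymphocyte content and the signal of those 6 dendritic cell genes thus cannot be told apart on these arrays. No member was lower on every rich array, as 1.62% of all genes were. The split is a description of arrays ordered by a measured score and carries no test. The spread within groups was correspondingly large. Its SD exceeded that of 97.9% of genes for Ctla4, 97.1% for Cd86, 94.3% for Pdcd1, 93.8% for Icosl, 90.2% for Havcr2, 82.7% for Pdcd1lg2, 77.6% for Lag3, 63.8% for Cd274 and 35.6% for Cd80.

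With the lymphocyte score in the fit, the wildtype estradiol difference of Icos went from -2.16 to -0.11 (SE 0.17) and that of Ctla4 from -1.07 to 0.03 (SE 0.21). That of Pdcd1 went from -0.64 to 0.01 (SE 0.25), that of Icosl from -0.61 to 0.01 (SE 0.25), that of Havcr2 from -0.59 to -0.10 (SE 0.24) and that of Pdcd1lg2 from -0.57 to -0.18 (SE 0.15). None of these 6 was called in either fit, and the limma adjusted p with the covariate ran from 0.566 to 0.991. The slopes, in log2 units per unit of the score, were 1.10 for Icos, 0.59 for Ctla4, 0.45 for Cd86, 0.35 for Pdcd1, 0.33 for Icosl, 0.26 for Havcr2, 0.21 for Pdcd1lg2, -0.04 for Cd80 and -0.15 for Lag3. Cd274 kept its difference, as given above. In knockout the covariate left differences between -0.34 (Pdcd1) and 0.24 (Cd80), none of them called.

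**Figure D3:**
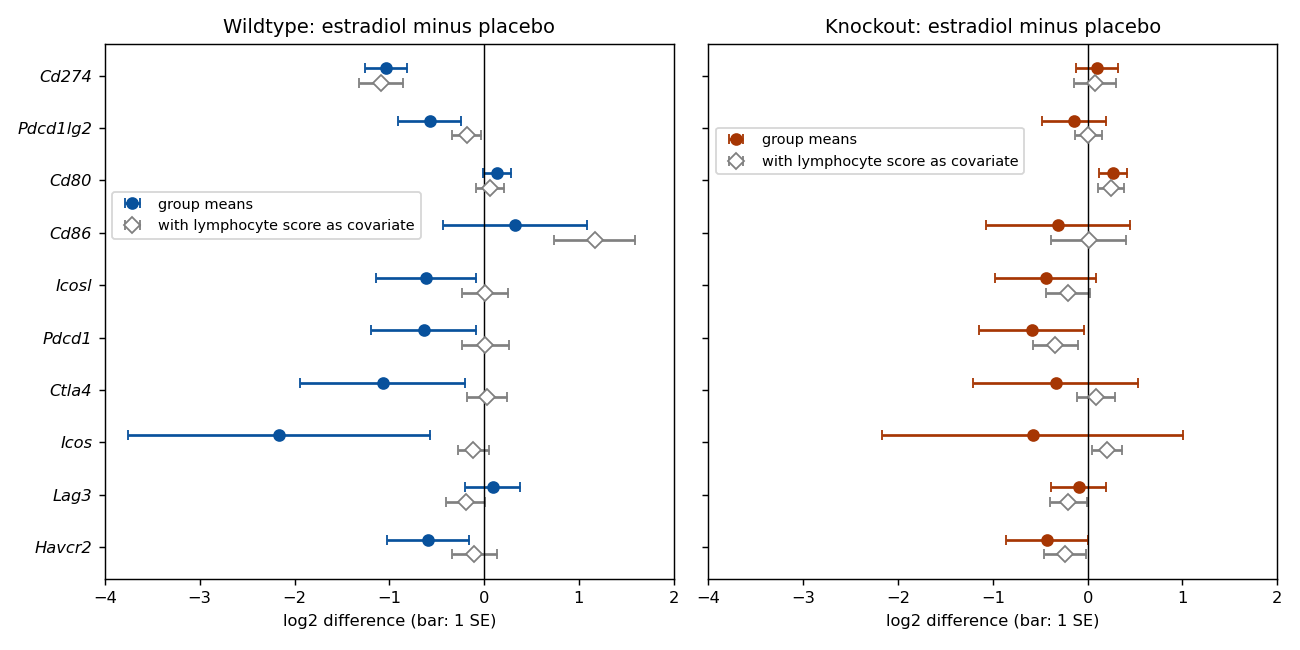
Estradiol minus placebo difference (x axis, log2) of each member in wildtype (left) and knockout (right), from the group means (filled circles) and with the lymphocyte score as a covariate (open diamonds). Bars are 1 SE. In wildtype the Icos difference goes from -2.16 to -0.11 and the Cd274 difference from -1.04 to -1.09.

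Beyond the members, 37 of 40 other listed co-signalling genes were measured. With estradiol in wildtype 2 of 37 rose and 0 fell at the adjusted threshold of limma, against 1.88% of all genes called. An unadjusted p under 0.05 was reached by 8 of 37, against 13.5% of all genes. The median difference of the 37 was -0.13. In knockout 1 rose and 0 fell, against 0.0989% of all genes called, and the median was -0.16. Under estradiol 1 was higher and 1 lower in knockout than in wildtype, against 1.12% of all genes called. Under placebo and in the interaction none was called by limma. There 1 and 4 had an unadjusted p under 0.05, against 2.03% and 6.43% of all genes.

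Fgl1, a secreted protein described as a ligand of LAG-3, rose in both genotypes. It read 6.12, 6.10 and 6.17 in wildtype placebo and 7.31, 7.02 and 7.62 in wildtype estradiol. The knockout arrays gave 6.15, 6.59 and 6.03 with placebo and 8.60, 8.26 and 8.56 with estradiol. The rise was 1.18 (SE 0.18, limma adjusted p = 0.0112) in wildtype and 2.22 (SE 0.18, limma adjusted p = 0.000837) in knockout, all estradiol arrays lying above all placebo arrays. Under estradiol it was higher in knockout by 1.16 (SE 0.18, limma adjusted p = 0.0193), while the interaction of 1.04 (SE 0.26) did not pass, at a limma adjusted p of 0.34. Its proposed receptor gene Lag3 showed no such rise, as given above.

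Ceacam1, an adhesion molecule of epithelium and leukocytes proposed as a partner of TIM-3, rose in wildtype. It read 8.28, 8.33 and 8.41 in wildtype placebo and 8.87, 9.24 and 8.95 in wildtype estradiol. The knockout values were 8.32, 8.44 and 8.13 with placebo and 8.42, 7.96 and 8.12 with estradiol. The wildtype rise was 0.68 (SE 0.15, limma adjusted p = 0.0467) and the knockout difference -0.13 (SE 0.15, limma adjusted p = 0.844). Under estradiol it was lower in knockout by -0.85 (SE 0.15, limma adjusted p = 0.0257), and the interaction was -0.81 (SE 0.21, limma adjusted p = 0.35).

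Among those 37 genes, 11 were higher on every one of the 7 lymphocyte-rich arrays than on any poor array, against 4.53% of all genes: Cd28, Btla, Tnfrsf14, Cd96, Tnfrsf9, Tnfrsf4, Tnfrsf18, Cd27, Cd40, Havcr1 and Cd2. Btla, an inhibitory receptor of B and T cells, ran from 9.62 to 11.7 on the rich arrays and from 5.31 to 6.50 on the poor ones. The others overlapped between these arrays, among them the ligands Cd276, Vtcn1, Nectin2, Pvr, Tnfsf4, Tnfsf9 and Cd70 and the receptors Cd226, Cd160, Cd244a, Cd200r1 and Vsir.

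**Figure D4:**
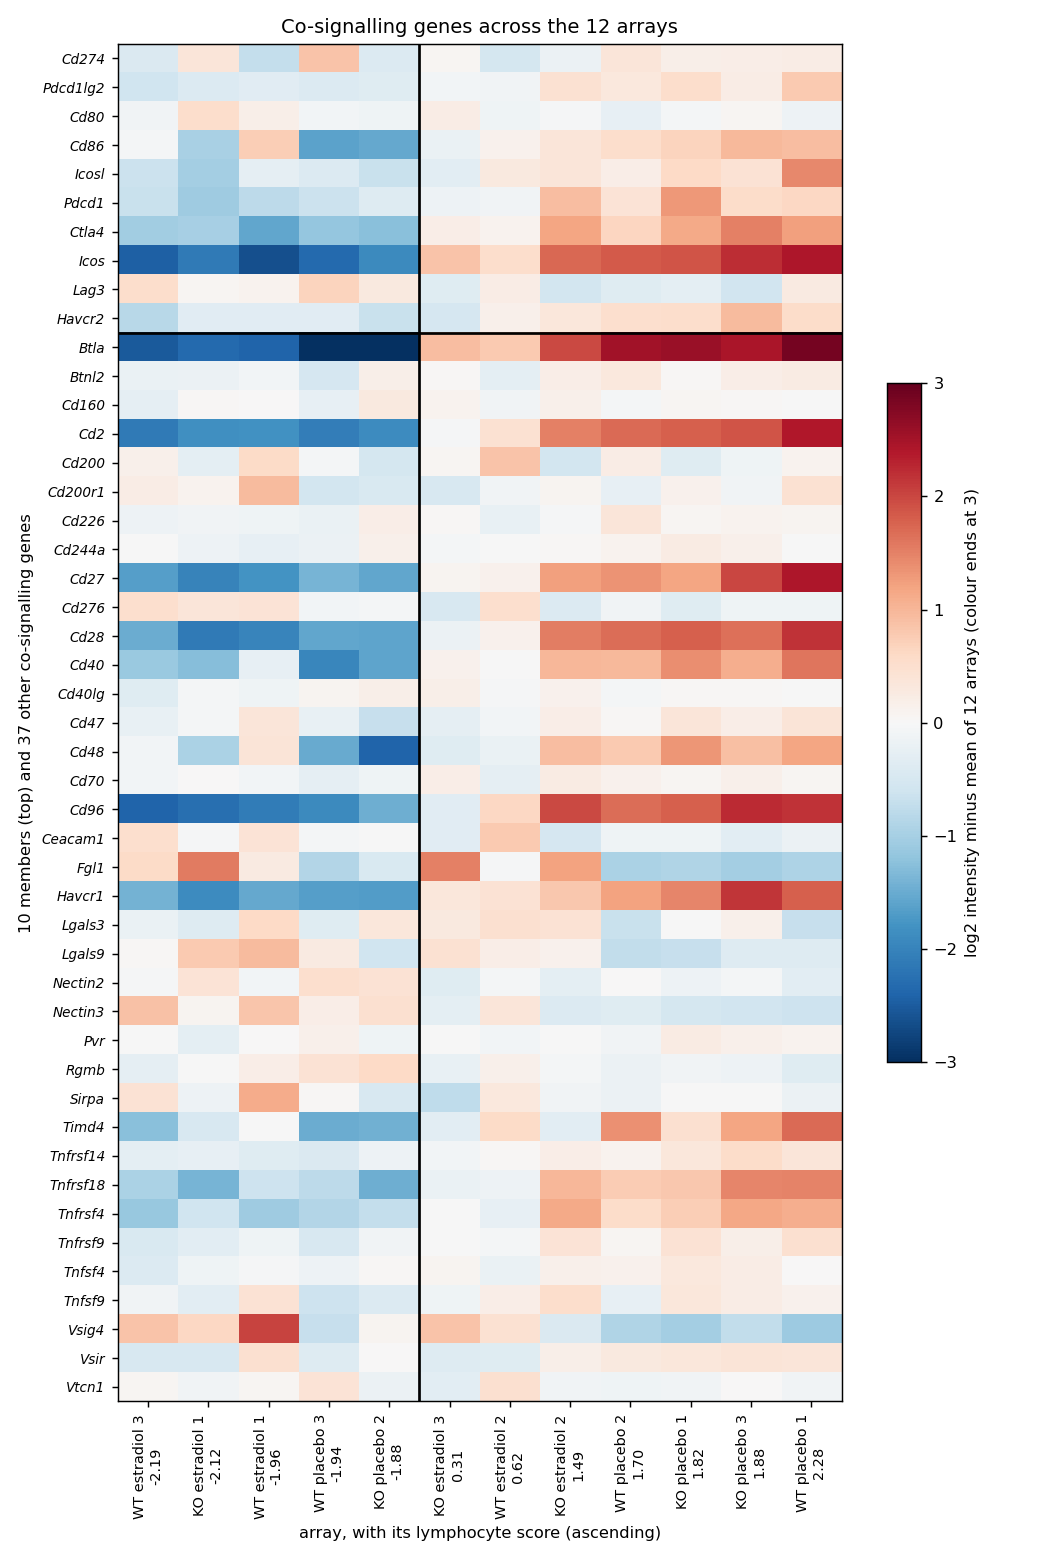
Log2 intensity minus the mean of the 12 arrays (colour, ends at 3) for the 10 members (above the line) and 37 other co-signalling genes (below), with arrays in order of the lymphocyte score printed under each. The vertical line parts the 5 arrays with scores below 0 from the 7 above. Icos, Btla, Cd2, Cd28 and Cd96 are higher on every array right of that line than on any array left of it, and Cd274, Cd80 and Lag3 are not.

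Lists of the cells that carry checkpoint molecules were read beside the members. With estradiol in wildtype, 1.88% of all genes were called and 13.5% had an unadjusted p under 0.05. Of 17 T cell and 15 B cell genes none was called with estradiol in wildtype by limma, with 0 and 0 at an unadjusted p under 0.05, though all 17 and all 15 differences lay below 0, with medians of -1.97 and -2.06. The smallest adjusted p in each were those of Themis (-2.40, limma adjusted p = 0.459) and Cd8a (-1.62, limma adjusted p = 0.471), and of Vpreb3 (-0.65, limma adjusted p = 0.451) and Cd79a (-2.27, limma adjusted p = 0.562). Of 7 regulatory T cell genes none was called by limma, with 2 at an unadjusted p under 0.05, Il10 (1.35, limma adjusted p = 0.175) and Ikzf2 (-1.10, limma adjusted p = 0.308). Foxp3, which defines these cells, read 4.94 to 6.78 on the lymphocyte-rich arrays and 4.503 to 4.89 on the poor ones. Of 21 genes of signalling below these receptors none was called by limma, with 1 at an unadjusted p under 0.05, Pik3r1 (0.64, limma adjusted p = 0.295), followed by Plcg1 (-0.27, limma adjusted p = 0.413).

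Among 15 cytotoxic, NK and T effector genes, 1 fell with estradiol in wildtype, against 1.88% of all genes called. That was Tbx21, the transcription factor of interferon gamma-producing T cells, with 6.04, 6.29 and 5.78 on the placebo arrays and 4.63, 5.08 and 4.97 on the estradiol arrays, a fall by 1.14 (SE 0.22, limma adjusted p = 0.0289). In knockout its difference was -0.60 (limma adjusted p = 0.515), and its average estradiol effect over both genotypes was called, at -0.87 (limma adjusted p = 0.0221). Ifng itself read 3.14 to 4.15 over all 12 arrays, and its wildtype difference was -0.40 (limma adjusted p = 0.546).

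Of 17 interferon gamma response genes, 1 fell and 1 rose in wildtype, against 1.88% of all genes called. The median difference of the 17 was -0.14. Cxcl9, a chemokine that draws T cells, read 10.4, 10.1 and 10.2 with placebo and 8.53, 8.84 and 8.37 with estradiol, a fall by 1.64 (SE 0.25, limma adjusted p = 0.0112). In knockout it differed by -0.71 (limma adjusted p = 0.516). Its average estradiol effect over both genotypes was called, at -1.17 (limma adjusted p = 0.0121), and its interaction of 0.93 was not (limma adjusted p = 0.697). Ido1, which degrades tryptophan, went the other way, rising by 5.77 (SE 0.64, limma adjusted p = 0.00251), and it was lower in knockout under estradiol by -5.20 (limma adjusted p = 0.0114). Of the 17 differences in wildtype 13 lay below 0.

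**Figure D5:**
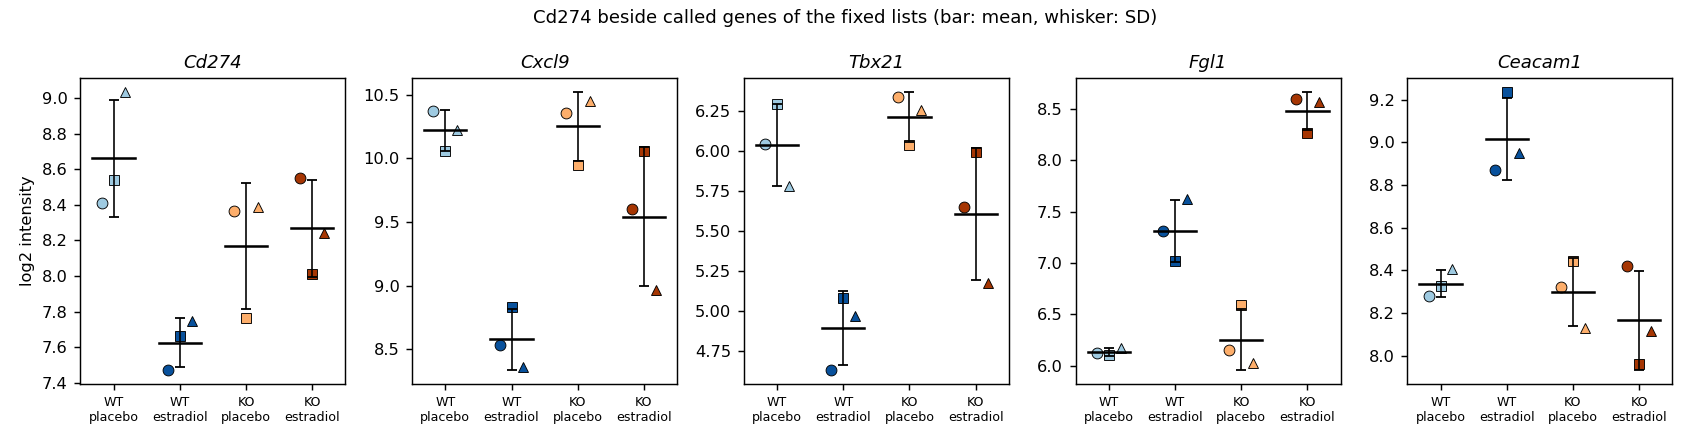
Log2 intensity (y axis) of Cd274, Cxcl9, Tbx21, Fgl1 and Ceacam1 in the 4 groups (x axis), with circles, squares and triangles for replicates 1, 2 and 3, bars for the mean and whiskers for the SD. In wildtype, Cd274, Cxcl9 and Tbx21 are lower and Fgl1 and Ceacam1 higher on all 3 estradiol arrays than on the 3 placebo arrays.

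Some myeloid genes rose in wildtype with estradiol. Among 22 macrophage genes 3 rose and 0 fell, Cd14 by 1.81 (limma adjusted p = 0.0192), Fcgr1 by 3.00 (limma adjusted p = 0.0205) and Fcgr3 by 1.86 (limma adjusted p = 0.0467), against 1.88% of all genes called. Over that list the differences had a median of 1.54, with 1 of 22 below 0, and 17 of 22 were at an unadjusted p under 0.05 against 13.5% of all genes. Of 13 dendritic cell genes 1 rose, the lectin Clec10a, by 2.40 (limma adjusted p = 0.0257), which was also the 1 gene of that list at an unadjusted p under 0.05. The dendritic cell list as a whole went the other way, with 12 of 13 differences below 0 and a median of -0.67. In knockout no gene of these lists was called by limma. An unadjusted p under 0.05 was reached by 1 of 22 and 1 of 13, against 8.32% of all genes. The difference between the responses of the genotypes was called by limma for 0 of 22 and 0 of 13. For that difference 3 and 1 had an unadjusted p under 0.05, against 6.43% of all genes. Of the epithelial genes, Acta2, Cnn1 and Oxtr, 3 of 9 basal genes, rose in wildtype, by 1.59, 1.97 and 4.46, against 1.88% of all genes called. Oxtr was also higher with estradiol in knockout, by 3.85 (limma adjusted p = 0.0995), and its average estradiol effect of 4.16 was called (limma adjusted p = 0.002). Under estradiol Acta2 and Cnn1, and 6 of 12 luminal genes (Krt19, Cdh1, Elf5, Cldn4, Cldn7 and Esrp1, by -5.13 to -2.20), were lower in knockout. Over all genes 1.12% were called in that comparison. The fall of Cd274 in wildtype thus stood beside higher macrophage and epithelial signal, whose part in it was not tested. The skeletal muscle score ran, over all 12 arrays, from -4.01 to 3.76.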

How the data were processed

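Total RNA of 12 glands was measured on Affymetrix arrays, 1 per mouse. The authors deposited log2 intensities of 45101 probe sets, for which the submitters' processing notes name RMA and limma 2.9.16. RMA corrects the background, gives all arrays 1 distribution and sums up the probes of a set. Versions of RMA and of the chip definition are not given in the sources used here. That the deposited values are on a log2 scale was checked on the array medians, which lay between 5.73 and 5.80. RMA gives no detection call, so a dim probe set is described by its place under the lower quartile of its array. RMA also compresses dim signals, so differences of dim genes can be understated.

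The platform annotation links 34945 probe sets to 1 gene, and the brightest of these on average over all arrays stood for each of the 18193 genes. Then 1 fit of 4 group means was made (limma 3.58.1 in R 4.3.3, 8 residual and 2.15 prior degrees of freedom), with 7 comparisons and two-sided tests and Benjamini-Hochberg adjustment across the whole gene table. Precision is limited by the number of arrays. The fit was tested on simulated data.

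The members, gene lists, scores and comparisons were chosen with earlier results of these data known. All 10 members are named; from the other lists every called gene or, where a discussed list had none, the 2 with the smallest p, and for a member the 3 most similar profiles. Scores are means of centred log2 values without the members. Coordinates come from RefSeq promoters of GRCm38.p6, since the deposited files name no build. Replicate numbers were not taken as pairs: deviations of equally numbered arrays correlated from -0.74 to 0.66. Whether equal numbers share a batch was not tested. Alternatives were other summaries of probe sets, a filter on dim genes, scalings, priors, array weights, a replicate block, fits of 6 arrays, covariates, other thresholds and arrays left out. Plots use matplotlib 3.10.9 (Python 3.11.15).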

Additional observations from a re-analysis of the deposited data

How the results depend on the processing

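The count of members called with estradiol in wildtype, 1 as reported, was 0 with each probe set on its own, 0 with trend and robust priors, 0 in the fit of only 6 arrays, 0 with the macrophage and 0 with the luminal score as a covariate, and 0 to 1 without each array in turn. It was 5 with array weights, an estimate that did not converge and that called 4702 of all genes against 342. With the average estradiol effect, 0 as reported, array weights called 6 members. Leaving out both placebo arrays poorest in lymphocyte genes, an omission chosen by a measured score, called 5 for that effect (Cd274, Pdcd1lg2, Ctla4, Icos and Havcr2). Array weights and this omission also called many more of all genes for that effect than the 287 of the reported fit. In wildtype the omission called 2154 of all genes against 342. The higher member counts thus came with a broad rise in calls, and whether the members exceed that rise was not tested. Among covariates chosen after seeing the data, the basal epithelium score gave 0 members in wildtype, with 1 of all genes called. The interferon gamma response score gave 3 members in wildtype (Cd274, Pdcd1lg2 and Havcr2) and 1 for the average effect (Havcr2). With that score 1526 of all genes were called in wildtype, against 342. The cause of these changes was not tested. In the other comparisons no alternative called a member.

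With the replicate number as a block, 0 members were called in wildtype (Cd274 adjusted p = 0.0693 by limma). No array lay closest in its deviations to one of its own number, but that does not test for a batch shared by equal numbers. For Cd274 in wildtype the adjusted p ran from 0.00162 to 0.966 over 27 alternatives, at differences from -1.63 to -0.79. The higher p include 0.0519 with trend and robust priors and 0.124 in the fit of 6 arrays. Outside these 27, the fit of each probe set on its own gave 0.055. Of 1791 other values of members, 1577 kept their direction and their side of the threshold. Here too, some alternatives leave a difference unchanged by construction. Of the rest, 18 were called under an alternative (10 of them under array weights), 196 turned sign without a call, and 0 turned sign with a call. Median scaling moved the median of all genes by -0.13 with estradiol in wildtype, by 0.16 for genotype under estradiol and by 0.13 in the interaction. Of all genes called with estradiol in wildtype, the count ran from 100 to 1146 without 1 array. Signal over background limits Pdcd1, Havcr2 and Cd80, and 6 of 10 members lie among the dimmest 40% of genes.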

Other observations

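Some co-signalling genes were chosen after their values were seen. Vsig4, an inhibitory B7-related receptor of tissue macrophages, read 4.32, 4.503 and 4.72 in wildtype placebo and 7.44, 5.88 and 6.27 in wildtype estradiol. In knockout it read 4.40, 5.49 and 4.68 with placebo and 6.03, 4.99 and 6.26 with estradiol. The wildtype groups did not overlap, and the difference of 2.01 (SE 0.45) missed the threshold, at a limma adjusted p of 0.0545. Its highest value was on wildtype estradiol 1, the array with the highest macrophage score. Cd276, another B7 family gene, read 5.81 to 5.87 in wildtype placebo and 6.35 to 6.46 in wildtype estradiol, a difference of 0.58 (SE 0.19, limma adjusted p = 0.195). In knockout it read 5.59 to 5.88 with placebo and 5.46 to 6.30 with estradiol. Cd48, a ligand of the receptor that Cd244a encodes, resembled Cd86: it read 8.503 on wildtype estradiol 1 and 8.05 on wildtype estradiol 3, against 6.62 on wildtype placebo 3, 5.73 on knockout placebo 2 and 7.19 on knockout estradiol 1, all of them poor in lymphocyte genes. Timd4, a receptor of macrophages that binds phosphatidylserine, read 7.18 to 9.21 on the lymphocyte-rich arrays and 6.01 to 7.48 on the poor ones.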
